A study of Mus musculus with 12 samples.

Results

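The sites compared here carried an m6A peak in both regulatory dendritic cells (DCreg) and mature dendritic cells (maDC). A DCreg peak and a maDC peak formed a pair when both lay on one RefSeq transcript and shared 50% or more of the length of the shorter one. This gave 9093 pairs on 5320 transcripts, made of 8920 of the 13145 DCreg peaks (67.9%) and 8641 of the 17316 maDC peaks (49.9%), out of 40978 peaks in the 3 lists of the series. The differences that passed the test were gains in DCreg at 22 pairs, headed by Cd274, which encodes the inhibitory ligand PD-L1. Of the 22, 18 lay in 3′ UTRs, against 2308 of all 9093 pairs. Of the 20 with a checked sequence, 16 held a tandem repeat of a short unit. The m6A consensus GGACT was in the DCreg peak of 0 of the 22. With another variance setting of the test 0 pairs passed. No shared peak passed the test in the other direction, and by transcript region the levels in both cell types overlapped.

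Anti-m6A immunoprecipitates (IP) and their inputs were sequenced from 2 replicates of each dendritic cell type, and 8 of the 12 libraries bear on this comparison. All cells came from bone marrow of C57BL/6 mice aged 6 weeks, cultured with GM-CSF at 10 ng/ml and IL-4 at 1 ng/ml and enriched for CD11c, the stage named imDC. For DCreg, such cells were matured with LPS (100 ng/ml, 24 h) and then kept for 7 days on spleen endothelial cells. maDC had the same LPS treatment without the co-culture. The labels give NEBNext Ultra as the library kit for both DCreg replicates and for maDC replicate 2, and TruSeq for maDC replicate 1, so kit and cell type cannot be fully told apart. The study's methods name NEBNext Ultra alone, and which of the sources is right was not settled. Column 1 and column 2 of each list were assumed to be replicates 1 and 2 of the labels. Depth per library is unknown here. The study calls the replicates biological, and its methods give the marrow of many mice per cell type. No p-value here measures more than the spread between these samples, and those of limma pool that spread over peaks of like mean enrichment.

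m6A is a methyl group on the nitrogen at position 6 of adenosine. In mRNA it is placed by a writer complex around Mettl3, Mettl14 and Wtap, removed by the demethylases Fto and Alkbh5, and bound by readers of the Ythdf family, which affect the translation and decay of the transcript. The writer prefers adenosine in sequences such as GGACU, and peaks gather near stop codons and in long exons. In meRIP-seq, an antibody to m6A pulls down RNA fragments, and a peak is a stretch where IP reads exceed input reads relative to the rest of its transcript. The deposited value of a peak in a replicate is that enrichment on the log2 scale, so a difference of 1 is a doubling of the ratio. A value can be high because more copies carry the mark, because the antibody retained the fragment for another reason, or because input coverage is low there, and in bulk RNA fewer marked cells and fewer marks per cell cannot be told apart.

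To show what lay under some of the peaks described below, 2 sets of 30-base sites are printed 5′ to 3′ in transcript sense, as DNA letters, from the RefSeq annotation of GRCm38. The first set comes from peaks that rose in DCreg, and the capitals mark the start of a tandem repeat, a run of one unit of 1 to 6 bases.
Cd274, chr19:29387025-29387054, plus strand, 3′ UTR: ttcttcCTTTCTTTCTTTCTTTCTTTCTTT
Suclg2, chr6:95473371-95473400, minus strand, 3′ UTR: ctttccTTCTTTCTTTCTTTCTTTCTTTCT
E2f1, chr2:154560375-154560404, minus strand, 3′ UTR: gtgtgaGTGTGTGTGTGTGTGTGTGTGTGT
Trim12c, chr7:104339886-104339915, minus strand, 3′ UTR: gaagggAAGAAAGAAAGAAAGAAAGAAAGA
Tulp3, chr6:128322995-128323024, minus strand, stop codon: ctgcctCTGCCCCTGCCCCTGCCCCTGCCC
Bmt2, chr6:13625911-13625940, minus strand, 3′ UTR: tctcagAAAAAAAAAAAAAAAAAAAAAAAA
The printed stretches of Cd274, Suclg2 and Tulp3 hold no adenosine, but the rest of each peak is not printed.

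The second set comes from pairs that did not pass the test but held the consensus GGACT in both peaks, and the capitals mark it. They were chosen after their values were seen. Only pairs with a checked sequence and no tandem repeat, whose cell types differed by at least 1 without overlap, were considered. Among those, Epn1, Ube2m, Supt16 and Kmt2c had the largest differences above 0, and Adcy6, Traf4 and Tbc1d8 were among the largest below 0. A 3′ UTR pair of Cflar with GGACT in both peaks, left out for its repeat, had a larger difference (2.76).
Epn1, chr7:5089999-5090028, plus strand, CDS: gcagacgctgaaGGACTtccagtatgtgga
Ube2m, chr7:13037895-13037924, minus strand, 5′ UTR: caggccagagccGGACTacgggagccgagg
Supt16, chr14:52162704-52162733, minus strand, CDS: agaaagcgggaaGGACTgggatgagctaga
Kmt2c, chr5:25284937-25284966, minus strand, CDS: agcctcggctgaGGACTgttcctgttgggc
Adcy6, chr15:98592186-98592215, minus strand, 3′ UTR: gcggctgcgcttGGACTgtgttcgtctgcc
Traf4, chr11:78159863-78159892, minus strand, stop codon: ggaagggaggcgGGACTggatctgaaactg
Tbc1d8, chr1:39372575-39372604, minus strand, CDS: tcctcccgaacaGGACTcagtttttgctga

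Across all pairs the enrichment was similar in both cell types. The median log2 enrichment was 2.53 in DCreg replicate 1 and 2.10 in DCreg replicate 2, and 2.16 and 2.44 in maDC. The median difference, DCreg minus maDC, was 0.03 with an SD of 0.69 over pairs, and the exact two-sided permutation test of the replicate medians gave p = 1.0, where 2 against 2 samples cannot give less than 0.33. DCreg replicate 2 stood apart from the other columns. Across pairs, which are not replicates, its Pearson r was 0.51 with DCreg replicate 1 and 0.30 and 0.34 with maDC replicates 1 and 2. DCreg replicate 1 had r = 0.65 and 0.68 with the maDC replicates, and the maDC replicates had r = 0.69 with each other. Both replicates of a type overlapped the other type in 5771 pairs.

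The overlap required for a pair had little bearing on these levels. The 201 pairs that shared 50% to 60% of the shorter peak had medians of 2.40 and 1.88 in DCreg and 2.12 and 2.46 in maDC. The 162 peak combinations that shared 40% to 50%, and so were left out, had medians of 2.32 and 1.83 in DCreg and 2.06 and 2.24 in maDC. In most pairs both peaks had the same place in the transcript (8399, 92.4%), and 1206 pairs held a peak that also belonged to another pair, so neighbouring pairs can share values.

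In limma with Benjamini-Hochberg adjustment over all pairs, 22 pairs rose in DCreg at an adjusted p under 0.05, which is 0.242% of the pairs, and 0 (0%) fell. At an unadjusted p under 0.05, 450 pairs (4.95%) were higher in DCreg and 211 (2.32%) lower. The 22 differences lay between 2.61 and 4.30 (median 3.07), and 18 of the 22 were in 3′ UTRs, against 2308 of all 9093 pairs. Among them were an immune checkpoint ligand, cell cycle and haematopoietic transcription factors, death and insulin receptors, and proteins that bind the cap or the poly(A) tail of mRNA.

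The largest gain was in the 3′ UTR of Cd274 (chr19:29386955-29387110), the gene of PD-L1, which restrains T cells through PD-1. Its log2 enrichment was 4.32 and 7.50 in DCreg, against 1.91 and 1.31 in maDC, a difference of 4.30 ± 0.73 (SE) with an adjusted p of 3.14e-05 in limma. This SE, like those below, is shared by peaks of like mean enrichment. It does not measure the spread of the peak's own replicates, which was wide in DCreg. The other peaks of the transcript were closer to maDC. A peak in the Cd274 coding sequence had 3.98 and 3.53 in DCreg, against 2.79 and 3.08 in maDC. The stop codon peak had 3.26 and 2.79 in DCreg, against 3.40 and 3.34 in maDC. Of the 4 pairs of this transcript only the 3′ UTR pair passed the test.

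The next gains were in genes of metabolism and the cell cycle. Suclg2, a subunit of the mitochondrial succinyl-CoA ligase, had 4.06 and 6.14 in DCreg, against 1.46 and 1.12 in maDC, at chr6:95473337-95473492 (difference 3.81 ± 0.72, adjusted p = 0.000597 in limma). E2f1, a transcription factor that drives entry into S phase, had 4.17 and 5.52 in DCreg, against 1.30 and 1.19 in maDC, at chr2:154560373-154560531 (difference 3.60 ± 0.72, adjusted p = 0.00162). In both genes each DCreg value was above 4 and each maDC value near the threshold of 1 that the authors set for a peak. Sfxn3, a mitochondrial serine transporter, had 5.19 and 7.31 in DCreg, against 3.45 and 2.95 in maDC. Insr, the insulin receptor, had 3.42 and 6.03 in DCreg, against 1.13 and 2.14 in maDC.

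Regulators of transcription and RNA made up a further group. Runx1, a transcription factor of blood cell development, rose in its 5′ UTR with 4.82 and 5.45 in DCreg, against 1.83 and 2.77 in maDC (difference 2.83 ± 0.73, adjusted p = 0.042 in limma). A second pair of Runx1 in the same 5′ UTR that shared the maDC peak had 2.98 and 2.77 in DCreg, which overlapped the maDC values. Pabpc4, a cytoplasmic poly(A)-binding protein, rose in its coding sequence (chr4:123290317-123291771) with 5.30 and 7.16 in DCreg, against 2.87 and 3.15 in maDC (adjusted p = 0.00522). Eif4e3, a cap-binding protein of the eIF4E family, had 4.56 and 5.44 in DCreg, against 1.81 and 2.50 in maDC. Zmat3, a zinc finger RNA-binding protein induced by p53, had 5.14 and 7.23 in DCreg, against 2.38 and 3.61 in maDC.

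Signalling and trafficking genes followed. Tnfrsf21, the death receptor DR6, had 3.04 and 5.79 in DCreg, against 1.58 and 1.63 in maDC. Trim12c, a mouse member of the TRIM family, had 5.34 and 6.18 in DCreg, against 1.24 and 3.20 in maDC (adjusted p = 0.00185). Tulp3, a tubby-like protein of ciliary trafficking, was 1 of the 2 called pairs with the higher DCreg value in replicate 1, at 6.07 and 3.70 in DCreg, against 1.93 and 1.38 in maDC. Bmt2, which senses S-adenosylmethionine upstream of mTORC1, was the other, at 4.69 and 3.71 in DCreg, against 1.24 and 1.58 in maDC. Madd, an exchange factor for Rab GTPases, had the smallest gain, with 2.32 and 5.17 in DCreg, against 1.18 and 1.09 in maDC. Arf3, a small GTPase, had 4.90 and 5.91 in DCreg, against 2.47 and 1.96 in maDC, and Atg4c, a protease that processes the LC3 family in autophagy, had 4.05 and 6.28, against 1.59 and 3.04. The remaining called pairs (Zfp395, Zdhhc20, Phactr2, Borcs7, Reep3 and 1 unnamed clone) differed by 2.83 to 3.55.

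**Figure D1:**
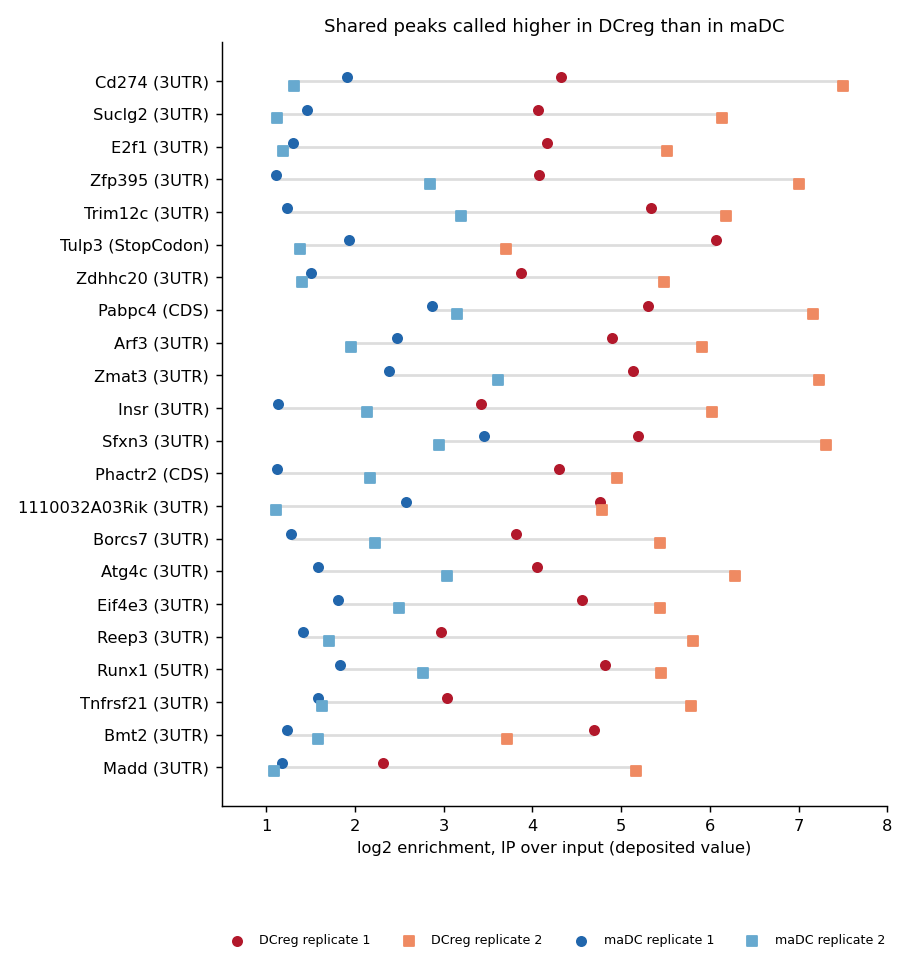
Log2 enrichment (IP over input) of the 22 pairs that rose in DCreg, ordered by the size of the difference. Circles are replicate 1 and squares replicate 2, DCreg in red and orange, maDC in blue. Every DCreg value lies to the right of both maDC values of its pair, and in 20 of 22 pairs DCreg replicate 2 lies to the right of DCreg replicate 1.

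DCreg replicate 2 set much of the size of these gains. Among the called pairs it had a median of 5.80 (3.70 to 7.50) and DCreg replicate 1 a median of 4.31 (2.32 to 6.07), against 1.54 (1.11 to 3.45) and 2.05 (1.09 to 3.61) in the maDC replicates. It was above DCreg replicate 1 in 20 of the 22, against 3194 of all 9093 pairs. Without DCreg replicate 2, 9 pairs were called, 6 of them among the 22, and Cd274 was not one of them. Without maDC replicate 1, which by the labels leaves NEBNext Ultra libraries alone, only the Cd274 pair was called. Without maDC replicate 2 the calls were Trim12c and Zfp395, and that of Cd274 was lost again. Without DCreg replicate 1, 144 pairs were called, 21 of them among the 22, and without the trend of variance on mean enrichment in limma 0 were called.

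The other peaks of the same transcripts were centred near 0. Of the 22 transcripts, 12 had another pair, 24 in all, and their differences ran between -0.89 and 1.66 with a median of 0.02. Just outside the threshold lay Ptp4a2 (adjusted p = 0.0527 in limma), Cflar (0.058), Zeb2 (0.0581) and Lpl (0.0581). Cflar, which encodes the caspase-8 inhibitor c-FLIP, had 4.23 and 5.85 in DCreg, against 2.58 and 1.98 in maDC. Zeb2, a transcription factor of plasmacytoid and conventional DC development, had 6.05 and 7.66 in DCreg, against 4.54 and 4.53 in maDC. Lpl, the lipoprotein lipase, had 5.53 and 7.34 in DCreg, against 3.47 and 4.49 in maDC.

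The called pairs shared features that the pairing did not use. Of the 20 with a checked sequence, 16 held an exact tandem repeat of 24 bases or more in the DCreg peak, against 2.68% of the 7992 pairs checked. The unit, read on either strand, was AAAG in 10 pairs and AC in 3. The other 3 pairs had the unit AAAAG at one site, the unit AGGGGC at another and a run of A at the last, and the runs were 26 to 68 bases long. None of the 22 held GGACT in the DCreg peak, against 32.3% of all pairs. In 21 of the 22 the DCreg peak was 150 to 160 bases wide, against 25.5% of all pairs. What part the repeat, the width or the motif had in the difference was not tested.

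The repeat pairs as a whole include the 16 called ones, so the values below, by length and unit too, are no separate check. At the 214 pairs with a repeat, the median log2 enrichment was 2.93 and 3.34 in DCreg, against 2.15 and 2.13 in maDC, and the median difference was 0.99. Relative to the pairs without a repeat and those not checked, the repeat pairs were higher by 0.40 and 1.26 in DCreg, against differences of -0.01 and -0.32 in maDC. The exact two-sided permutation test of the replicate medians gave p = 0.33, the least that 2 against 2 samples allow. Both DCreg values were above both maDC values in 58.9% of repeat pairs, where all pairs had 21.6%, and below them in 3.27%, where all pairs had 14.9%. Longer repeats had larger differences, with a median of 0.31 at 24 to 29 bases (57 pairs), 0.96 at 30 to 39 bases (34 pairs) and 1.27 at 40 bases or more (123 pairs). The AAAG unit, with 10 of the called pairs, had the largest median difference of the 6 most frequent units, 2.76 over 21 pairs. A run of A had the smallest, 0.17 over 12 pairs.

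**Figure D2:**
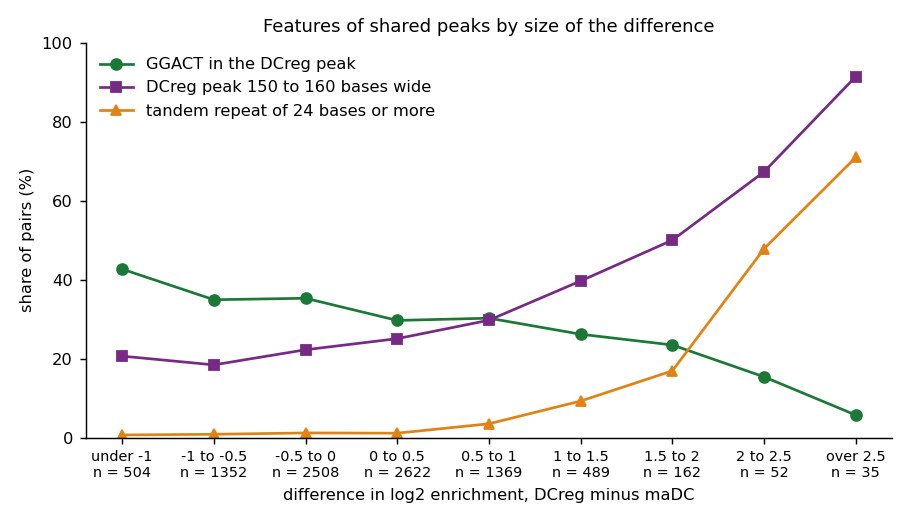
Share of pairs (%) with GGACT in the DCreg peak, with a DCreg peak 150 to 160 bases wide, and with a tandem repeat of 24 bases or more among checked pairs, by the difference in log2 enrichment, DCreg minus maDC. From the lowest to the highest bin, GGACT falls from 42.7% to 5.71% of pairs, narrow DCreg peaks go up to 91.4% and repeats to 71.0%.

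Over the whole lists, repeats were in 3.66% of the checked DCreg peaks, against 1.84% of the checked maDC peaks. In the imDC list they were in 3.36%, close to the DCreg share. Among peaks that had no partner in the other list, they were in 5.68% of DCreg peaks, against 0.999% of maDC peaks. By place in the transcript, 165 of the 214 repeat pairs lay in 3′ UTRs, 8.17% of the checked 3′ UTR pairs, against 0.47% of the checked CDS pairs.

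A peak of imDC lay at 15 of the 22 called sites, and its replicates differed there too. imDC replicate 1 was above imDC replicate 2 in all 15, with medians of 4.00 and 1.97, whereas over all 5974 pairs with an imDC peak it was so in 2580. At Cd274 the imDC values were 6.01 and 2.50, at E2f1 4.73 and 1.97, and at Madd 5.07 and 1.23. By these medians imDC replicate 1 was near the DCreg levels and imDC replicate 2 near the maDC levels. By the labels, imDC replicate 1 was prepared with TruSeq and imDC replicate 2 with NEBNext Ultra.

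Pairs with the consensus motif were closer to balance. GGACT was in both peaks of 2733 pairs (30.1%), by the positions that the authors list. Their medians were 2.65 and 2.12 in DCreg, against 2.33 and 2.60 in maDC, a median difference of -0.06, and 17.7% had both DCreg values above maDC and 16.7% below. In the 503 pairs with at least 2 copies in both peaks the median difference was -0.13. Pairs with none in either peak had a median difference of 0.07. With only the GGACT pairs in the fit, limma called 0 pairs.

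At single GGACT sites the values were as follows, and none of the 7 passed the limma test over all pairs. Epn1, an adaptor of clathrin endocytosis, had 4.15 and 4.59 in DCreg, against 1.41 and 2.08 in maDC (difference 2.63, adjusted p = 0.075). Ube2m, the conjugating enzyme of NEDD8, had 4.07 and 4.25 in DCreg, against 1.93 and 1.78 in maDC (adjusted p = 0.209). In both genes each DCreg value was above both maDC values. Supt16, a subunit of the histone chaperone FACT, had 4.55 and 5.50 in DCreg, against 2.94 and 2.92 in maDC. Kmt2c, a histone H3 lysine 4 methyltransferase, had 3.85 and 3.85 in DCreg, against 1.29 and 2.38 in maDC. In the other direction, Adcy6, an adenylyl cyclase, had 2.65 and 2.46 in DCreg, against 4.65 and 4.37 in maDC (difference -1.95, adjusted p = 0.456). Tbc1d8, a protein with a Rab GTPase-activating domain, had 2.83 and 1.56 in DCreg, against 3.99 and 4.08 in maDC (-1.84).

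The 10 pairs with the smallest p among those lower in DCreg had adjusted p between 0.21 and 0.424 in limma, so none is a call. Their differences were -1.12 to -2.29. The lowest difference was at the start codon of Syap1, a synapse-associated protein, with 2.58 and 1.10 in DCreg, against 3.96 and 4.30 in maDC. Ccnd2, the G1 cyclin D2, had 2.22 and 1.22 in DCreg, against 3.85 and 3.85 in maDC, in its 5′ UTR (chr6:127150843-127151000). Pde4b, a phosphodiesterase that degrades cAMP, had 2.74 and 1.32 in DCreg, against 3.80 and 4.33 in maDC, in its 3′ UTR (chr4:102605443-102605723). In these 3 genes the maDC replicates were close to each other, and DCreg replicate 2 was near the threshold of 1.

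Regulators of chromatin and signalling were among the same 10. Parp8, a mono-ADP-ribosyltransferase, had 2.79 and 1.11 in DCreg, against 3.82 and 4.12 in maDC. Kdm3a, a histone H3 lysine 9 demethylase, had 1.51 and 1.04 in DCreg, against 3.05 and 3.21 in maDC. Tet3, which oxidises 5-methylcytosine, had 1.06 and 1.01 in DCreg, against 2.15 and 2.16 in maDC. Traf4, an adaptor of TNF receptor signalling, had 1.90 and 1.16 in DCreg, against 3.10 and 3.64 in maDC at its stop codon, where GGACT is printed above. Tmem43 had 2.12 and 1.04 in DCreg, against 3.73 and 3.22 in maDC, Edem2, of ER-associated degradation, had 1.11 and 1.01, against 1.71 and 2.77, and Med8, a Mediator subunit, had 1.10 and 1.00, against 2.52 and 1.84. Of the 8 with a checked sequence 0 held a tandem repeat, and 4 of the 10 held GGACT in both peaks.

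**Figure D3:**
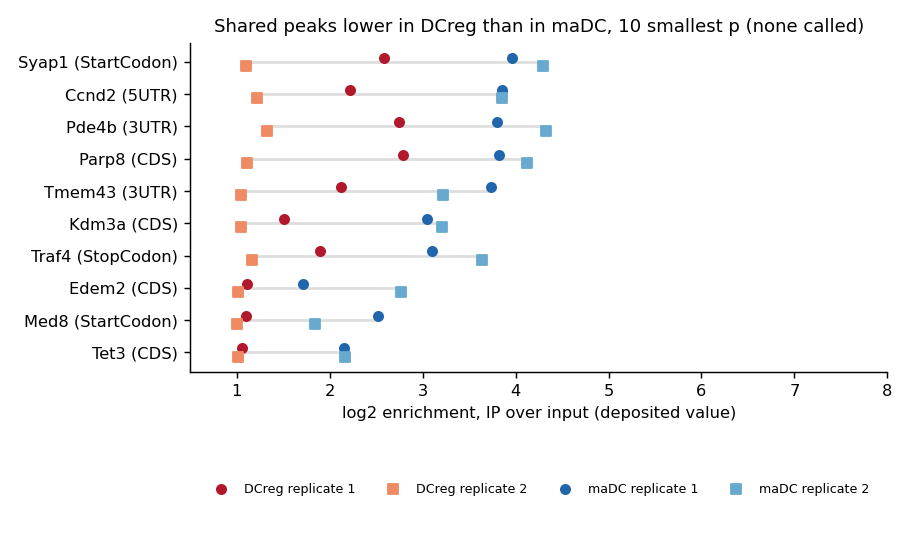
Log2 enrichment (IP over input) of the 10 pairs lower in DCreg with the smallest p, none of which passed the test. Circles are replicate 1 and squares replicate 2, DCreg in red and orange, maDC in blue. Every DCreg value lies to the left of both maDC values of its pair, and DCreg replicate 2 lies between 1.00 and 1.32.

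By size alone, 685 pairs (7.53%) had both DCreg values above both maDC values with a difference of at least 1, and 405 (4.45%) had both below with a difference of -1 or less. The higher ones had medians of 3.14 and 3.70 in DCreg, against 1.82 and 2.09 in maDC. The lower ones had medians of 2.50 and 1.42 in DCreg, against 3.17 and 3.43 in maDC. The excess of higher pairs changed with the scaling, with 563 higher and 575 lower after quantile normalization and 628 and 487 with each column centred on its median. DCreg replicate 2 was the farther of the 2 DCreg columns from maDC on both sides. Without it 940 pairs were higher and 167 lower, and without DCreg replicate 1 1086 were higher and 1602 lower. Without maDC replicate 1, 664 were higher and 1076 lower, and without maDC replicate 2, 1187 and 466. At the 505 higher sites with an imDC peak the imDC medians were 2.63 and 2.03, and at the 286 lower ones 2.16 and 3.12.

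The Location class gives the part of the transcript in which the authors placed a peak. Coding sequence pairs (CDS, 3837) leaned towards DCreg. Their medians were 2.49 and 2.19 in DCreg, against 2.02 and 2.41 in maDC, the median difference was 0.12, and both DCreg values were above maDC in 25.6% and below in 11.5%. Stop codon pairs (1155) leaned towards maDC, with medians of 2.74 and 2.03 in DCreg, against 2.35 and 2.75 in maDC, a median difference of -0.14, and shares of 15.2% above and 18.5% below. Start codon pairs (622) had medians of 2.32 and 1.85 in DCreg, against 2.21 and 2.23 in maDC, a median difference of -0.11, and shares of 15.4% above and 19.9% below. In none of these classes did the replicate medians of the cell types separate, and the exact permutation p was 0.667 for CDS and stop codon pairs and 1.0 for start codon pairs. Each of these leanings changed sign with 1 library left out. The CDS median was -0.017 without DCreg replicate 1 and -0.036 without maDC replicate 1, the stop codon median was 0.139 without DCreg replicate 2 and 0.045 without maDC replicate 2, and the start codon median was 0.065 without DCreg replicate 2.

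Relative to the pairs outside the class, the DCreg replicates had opposite signs in both the CDS and the stop codon class. CDS medians differed from the rest by -0.08 and 0.15 in DCreg, against -0.25 and -0.04 in maDC. Stop codon medians differed from the rest by 0.23 and -0.07 in DCreg, against 0.23 and 0.35 in maDC. The cell types overlapped in both classes. Among pairs that differed by at least 1 without overlap, 318 CDS pairs were higher in DCreg and 107 lower, while 57 stop codon pairs were higher and 75 lower.

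Pairs in the untranslated regions were near balance. The 2308 3′ UTR pairs had medians of 2.60 and 2.13 in DCreg, against 2.26 and 2.45 in maDC, a median difference of 0.03, and it was -0.02 over the 1854 checked pairs without a tandem repeat. Of the 3′ UTR pairs 226 were higher by at least 1 without overlap and 112 lower. Over those 1854 pairs, which also leave out the pairs with no checked sequence, the counts were 110 and 96. The 390 5′ UTR pairs had medians of 2.50 and 1.93 in DCreg, against 2.39 and 2.26 in maDC, and a median difference of -0.09, which was -0.41 without DCreg replicate 1. The 87 noncoding pairs had a median difference of 0.14 and the 694 pairs placed differently in the lists one of -0.05.

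**Figure D4:**
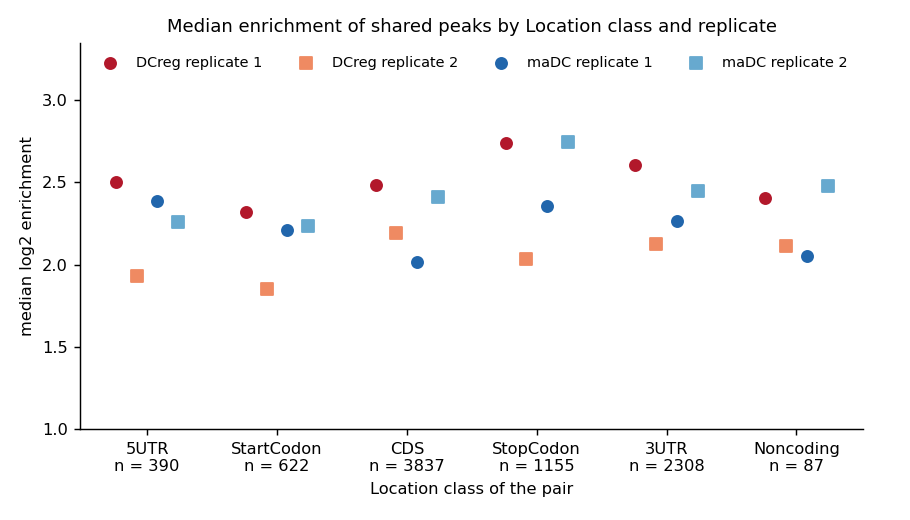
Median log2 enrichment of the pairs in each Location class, per replicate, with the number of pairs under each class. Within each class DCreg replicates are to the left (red circle and orange square) and maDC replicates to the right (blue). In all 6 classes the cell types overlap, and DCreg replicate 1 is above DCreg replicate 2.

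Along the transcript the median difference was lowest near the stop codon and in the 5′ UTR. With the CDS cut into 10 equal bins and the 3′ UTR into 8, it was 0.12 to 0.17 in CDS bins 2 to 8, -0.11 in CDS bin 10 and -0.17 in 3′ UTR bin 1. Farther into the 3′ UTR it was 0.24 in bin 6, where 12.5% of pairs held a repeat. In 3′ UTR bin 1 the medians were 2.87 and 2.03 in DCreg, against 2.46 and 2.83 in maDC, so DCreg replicate 1 lay above both maDC replicates and DCreg replicate 2 below both.

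Averaged over the pairs of a transcript, 2 of 5320 transcripts rose in DCreg (0.0376%) in limma and 0 (0%) fell. These were E2f1 and Suclg2, both with an adjusted p of 0.00554 and a single pair each. At an unadjusted p under 0.05, 263 transcripts were higher and 145 lower. The means of both DCreg replicates were above those of maDC in 1146 transcripts (21.5%) and below in 726 (13.6%). The 2 calls were lost when each column was centred on its median.

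Most transcripts with several peaks were mixed. Of the 903 with at least 3 pairs, 111 had all differences above 0, 79 had none above 0 and 713 had both signs, and 178 held non-overlapping pairs in both directions. The inhibitor of apoptosis Cflar had a CDS pair with 2.06 and 1.43 in DCreg, against 2.62 and 3.66 in maDC (-1.40), beside its 3′ UTR pair at 2.76. Ccnd2 had a 3′ UTR pair with 3.55 and 4.04 in DCreg, against 2.81 and 3.28 in maDC (0.75), beside its 5′ UTR pair at -2.13. The 2 pairs of Kdm3a lay at 1.12 and -1.86. Tgfb1, which encodes the regulatory cytokine TGF-β1, had a 5′ UTR pair with 3.22 and 3.98 in DCreg, against 1.79 and 1.95 in maDC (1.73), and another with 1.86 and 1.00 in DCreg, against 2.53 and 2.60 in maDC (-1.13).

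Among transcripts with 3 or more pairs, those with the smallest p at the level of the transcript are named for each direction, and none of them passed the test (adjusted p of 0.433 or more in limma). Nup153, a nuclear pore protein, averaged 2.96 and 3.36 in DCreg, against 1.89 and 2.14 in maDC. All 4 of its pairs were non-overlapping, though some of them share a maDC peak. Chd3, a chromatin remodeller of the NuRD complex, averaged 3.27 and 3.19 in DCreg, against 2.09 and 1.74 in maDC. Enc1, an actin-binding adaptor of ubiquitin ligases, averaged 3.20 and 3.69 in DCreg, against 1.77 and 2.26 in maDC. In Chd3 and Enc1 all 3 pairs were higher in DCreg without overlap, though some of them share a maDC peak. Others with mean differences of 0.98 to 1.53 were Phactr2, Ncapg2, a condensin subunit, Otud6b, a deubiquitinase, Trim12c, Nucks1, Tecpr1 and Tmem127. Of these, Trim12c also had a pair that was lower without overlap (-0.50).

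On the lower side the transcripts included regulators of cAMP, RNA decay and transcription. Pde4b averaged 4.05 and 2.64 in DCreg, against 4.59 and 5.23 in maDC (-1.57), and all 3 of its pairs, from the last part of the CDS into the 3′ UTR, were lower without overlap. Zc3h12c, a relative of the RNase regnase-1, averaged 2.27 and 1.31 in DCreg, against 2.73 and 3.32 in maDC (-1.24). Pip4k2a, a phosphoinositide kinase, averaged 2.48 and 1.81 in DCreg, against 3.72 and 3.10 in maDC (-1.26). Yy1, a zinc finger transcription factor, averaged 1.75 and 1.66 in DCreg, against 2.91 and 2.45 in maDC (-0.98), and Cdk12, a kinase of the RNA polymerase II tail, 1.85 and 1.70, against 2.50 and 2.97 (-0.96). Ric1, Sdc1, Stk35, Phf13 and Ddx5 had mean differences between -0.97 and -0.81, and Sdc1 (0.18) and Stk35 (0.09) each had 1 pair above 0.

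The pairs were also grouped by 35 lists of genes with known roles, and the shares of non-overlapping pairs, 21.6% higher and 14.9% lower over all pairs, are the background for them. For counts that also require a difference of at least 1, the background is 7.53% higher and 4.45% lower. Beyond the pairs of Cd274, E2f1 and Runx1, no pair of any list was called by limma, so what follows describes levels.

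Fatty acid and sterol metabolism had the lowest median difference among the lists of at least 12 pairs, markers left out. Of its 41 pairs on 25 genes, 1 was higher in DCreg without overlap (2.44%) and 12 were lower (29.3%), and the median difference was -0.39. The list medians were 2.58 and 1.80 in DCreg, against 2.56 and 2.75 in maDC, so DCreg replicate 1 lay between the maDC replicates and only DCreg replicate 2 lay below them. Abca1, which exports cholesterol, had 2.70 and 1.33 in DCreg, against 3.82 and 3.29 in maDC (-1.54). Acsl1, which activates long-chain fatty acids, had 3.28 and 1.55 in DCreg, against 3.94 and 3.71 in maDC (-1.41). Acaca, the acetyl-CoA carboxylase of fatty acid synthesis, had 1.60 and 1.19 in DCreg, against 2.58 and 2.70 in maDC (-1.25). Other lower members were Scd2, Abcg1, Soat1, Nceh1, Elovl5, Cyp51, Acsl4 and Lpin2, and the higher one was a stop codon pair of Acsl5 (0.32). The unadjusted p was under 0.05 for 3 pairs, all lower.

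The JAK, STAT, SOCS and IRF genes of cytokine and interferon signalling were next by that median. Of 33 pairs on 18 genes, 6 were higher (18.2%) and 10 lower (30.3%), with a median of -0.33. Irf4, a transcription factor of DC maturation, had 3.22 and 1.55 in DCreg, against 4.52 and 3.92 in maDC, in its 3′ UTR (-1.83) and was lower in its CDS as well (-1.21). Stat2, a transcription factor of type I interferon signalling, had 2.83 and 1.25 in DCreg, against 4.07 and 3.51 in maDC (-1.75). Socs3, an inhibitor of cytokine receptors, had 2.28 and 1.34 in DCreg, against 2.53 and 4.01 in maDC (-1.46). Irf8, which DC development requires, had 1.06 and 1.21 in DCreg, against 2.23 and 2.33 in maDC (-1.15). Higher members were Jak1, with 2.92 and 3.73 in DCreg, against 1.17 and 2.43 in maDC, in its CDS (1.53), Irf2bp1 (1.49) and Stat5b (1.15).

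Cytokine receptor chains leaned the other way. Of 45 pairs on 20 genes, 11 were higher (24.4%) and 3 lower (6.67%), with a median of 0.19. Of the 45, 10 were higher by at least 1 without overlap and 0 lower, where all pairs had 7.53% and 4.45%. Il10ra, the ligand-binding chain of the receptor for the anti-inflammatory cytokine IL-10, had 3.77 and 6.26 in DCreg, against 2.44 and 2.46 in maDC, in its 3′ UTR (2.57, adjusted p = 0.111 in limma). Its CDS pair had 1.40 and 1.05 in DCreg, against 1.71 and 2.58 in maDC (-0.92). Il10rb, the second chain, had 2.32 and 2.19 in DCreg, against 1.09 and 1.24 in maDC (1.09). Il21r, the receptor of IL-21, had 3.00 and 4.65 in DCreg, against 1.60 and 1.62 in maDC (2.22), over a tandem repeat. Its DCreg peak also forms another of the counted pairs (2.18). Il1rl2, a receptor of IL-36, had 4.14 and 5.73 in DCreg, against 2.60 and 3.40 in maDC (1.93). Il4ra (1.36), Il6ra (1.30), Csf2rb2 (1.46), Tgfbr1 (1.22) and Ifnar2 (1.05) were also higher. The list held 4 repeat pairs.

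Glycolysis and HIF-1 genes had 11 higher (33.3%) and 4 lower (12.1%) of 33 pairs, with a median of 0.33. Pfkl, the liver-type phosphofructokinase, had 2.82 and 4.11 in DCreg, against 1.91 and 1.96 in maDC (1.53). Slc16a3, a lactate exporter, had 3.21 and 5.45 in DCreg, against 2.72 and 3.08 in maDC (1.43). Pfkfb3, which makes the activator of phosphofructokinase, had 4.36 and 5.32 in DCreg, against 3.83 and 3.03 in maDC (1.40), over a repeat. Vegfa, the endothelial growth factor, had 3.25 and 3.58 in DCreg, against 2.55 and 1.87 in maDC, in its CDS (1.20), and 2.47 and 1.89 in DCreg, against 2.82 and 2.88 in maDC, at its start codon (-0.67).

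Cell cycle genes had 12 higher (36.4%) and 5 lower (15.2%) of 33 pairs, with a median of 0.33. Besides E2f1, the checkpoint kinase Bub1b had 3.74 and 4.08 in DCreg, against 2.88 and 2.27 in maDC (1.34), Cdk4, a kinase partner of the D cyclins, had 3.14 and 2.50, against 1.89 and 1.22 (1.26), and Cdkn1a, the CDK inhibitor p21, had 3.66 and 2.29, against 1.88 and 1.79 (1.14). Of 16 pairs of co-stimulatory and co-inhibitory genes, 6 were higher and 3 lower, with a median of 0.29. Besides Cd274, Cd200r1, an inhibitory receptor of myeloid cells, had 3.46 and 3.85 in DCreg, against 2.49 and 2.49 in maDC (1.17). Vsir, the inhibitory protein VISTA, had 3.49 and 2.88 in DCreg, against 3.57 and 3.90 in maDC (-0.55). Havcr2, which encodes TIM-3, had 3.21 and 4.74 in DCreg, which overlapped 2.50 and 3.80 in maDC.

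Transcription factors of DC and myeloid cells had 23 higher (28.0%) and 9 lower (11.0%) of 82 pairs, with a median of 0.07. Fosb, an AP-1 subunit, had 5.16 and 4.15 in DCreg, against 3.08 and 2.97 in maDC, in its 5′ UTR (1.63) and 4.44 and 4.99, against 3.11 and 2.76, in its 3′ UTR (1.78). Runx3 had 2.17 and 3.64 in DCreg, against 1.14 and 1.03 in maDC (1.82), and Runx2 had 3.79 and 5.21, against 2.83 and 3.25 (1.46), both over repeats, whereas the called Runx1 peak held none. Mef2a had 3.04 and 3.52 in DCreg, against 1.12 and 1.98 in maDC (1.73).

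Toll-like receptor genes had 8 higher and 2 lower of 42 pairs (median 0.09). The kinase Irak4 had 2.94 and 4.20 in DCreg, against 2.01 and 2.27 in maDC (1.43), and the ubiquitin ligase Traf6 had 3.24 and 2.21 in DCreg, against 4.16 and 4.20 in maDC, at its stop codon (-1.45). The NF-κB genes had 5 higher and 2 lower of 26 (median 0.10). Nfkbia, the inhibitor IκBα, had 2.43 and 4.21 in DCreg, against 1.12 and 1.56 in maDC (1.98), while Tnfaip3, the deubiquitinase A20, had 1.89 and 1.03 in DCreg, against 2.52 and 2.58 in maDC, in its CDS (-1.09). The MAP kinase and DUSP genes had 5 higher and 8 lower of 57 (median -0.05), and no member was higher by 1 or more without overlap.

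Prostaglandin and cAMP genes had 8 higher and 7 lower of 49 pairs (median -0.05). All 7 of the lower ones differed by at least 1, where 4.45% of all pairs were lower by that much. Besides Pde4b and the 3′ UTR of Adcy6, the stop codon pair of Adcy6 had 2.85 and 1.81 in DCreg, against 3.96 and 4.66 in maDC (-1.98), and Creb1, the cAMP response factor, had 2.85 and 1.56 in DCreg, against 3.23 and 4.11 in maDC (-1.47). The mRNA decay genes had 13 higher and 18 lower of 82 (median -0.07). Rc3h2, the RNA-binding protein Roquin-2, had 3.79 and 6.08 in DCreg, against 2.73 and 2.54 in maDC (2.30), over a repeat. Pan2, a deadenylase subunit, had 3.29 and 1.62 in DCreg, against 3.78 and 4.63 in maDC (-1.75), and Dcp1a, of the decapping complex, had 2.67 and 1.28, against 2.88 and 4.35 (-1.64).

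**Figure D5:**
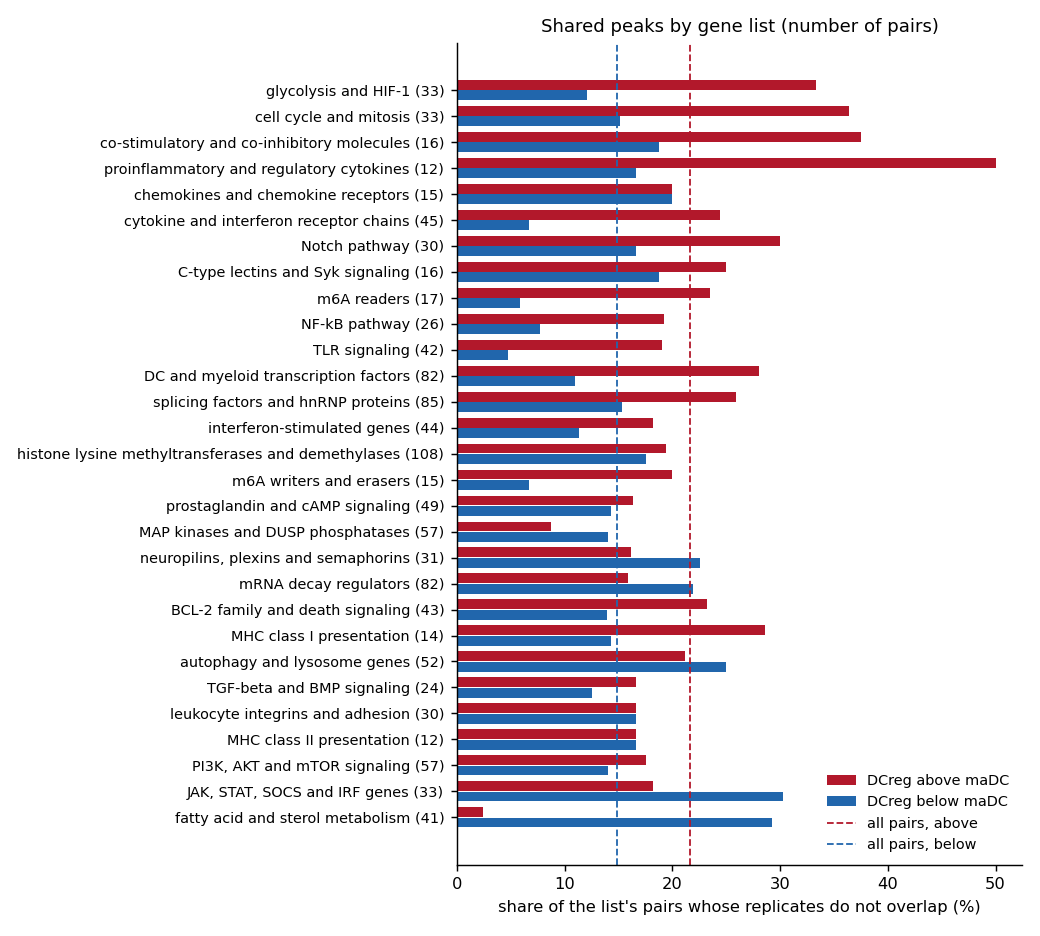
For gene lists with at least 12 pairs, markers left out, share of each list's pairs (%) whose DCreg and maDC replicates do not overlap, with DCreg above (red) or below (blue) maDC, ordered by the median difference. The number of pairs is in parentheses, and dashed lines mark the shares over all pairs (21.6% and 14.9%). Fatty acid and sterol metabolism is at the bottom, with 2.44% above and 29.3% below.

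Genes of the m6A machinery held no call. The writers and erasers had 3 higher and 1 lower of 15 pairs (median -0.04), with 0 that differed by at least 1 without overlap. The readers had 4 higher and 1 lower of 17 (median 0.10). Of the 17, 3 were higher by at least 1 without overlap, where all pairs had 7.53%. Among the readers, Prrc2a had 3.21 and 4.58 in DCreg, against 2.23 and 2.33 in maDC (1.62), and Hnrnpc had 4.49 and 5.71, against 3.44 and 4.35 (1.21). Ythdf3 had 5.30 and 5.01 in DCreg, which lay within 4.21 and 5.71 in maDC.

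The genes that the study follows had 10 pairs on 8 of 17 genes, and in none did the cell types separate. Cd80 and Cd86 encode ligands of CD28 on T cells. In its 3′ UTR, Cd80 had 2.88 and 2.16 in DCreg, against 3.45 and 2.52 in maDC (-0.46). The Cd80 peak that the study mutated lies in the coding sequence and had no pair, so it was not compared. Cd86 had 2.31 and 1.21 in DCreg, against 1.93 and 1.78 in maDC, in its 3′ UTR (-0.10). Tirap, an adaptor of TLR4, had 1.73 and 1.53 in DCreg, against 1.43 and 2.24 in maDC (-0.21). Tnf had 1.84 and 1.72 in DCreg, against 1.77 and 1.96 in maDC (-0.09). The writer subunit Wtap had 1.94 and 2.69 in DCreg, against 2.28 and 3.12 in maDC (-0.38). The demethylase Fto had 3.17 and 1.22 in DCreg, against 1.67 and 2.40 in maDC (0.16). Ythdf2 had differences of -0.29 and -0.66 and Ythdf1 of -0.01 and 0.12 at 2 pairs each. Cd40 had no pair.

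The lists hold peaks and not expression, so cell identity could not be checked by expression. Of the marker lists, 6 of 17 DC genes, 12 of 29 macrophage genes, 5 of 42 endothelial and stromal genes, 3 of 15 neutrophil genes and 0 of 18 lymphocyte genes had a pair. The DC markers had 2 higher and 3 lower of 10 pairs (median -0.27), with differences from -1.03 to 0.86, so the list was split. Among the lower ones, Itgax, the gene of CD11c, had 2.87 and 2.10 in DCreg, against 3.19 and 3.83 in maDC (-1.03) at its stop codon. Another Itgax pair on the same maDC peak had 3.53 and 2.99 in DCreg and overlapped maDC (-0.25). Ccr7, the lymph node homing receptor, had 2.34 and 2.83 in DCreg, against 3.01 and 3.33 in maDC (-0.59). The macrophage markers had 7 higher and 3 lower of 22 (median 0.39) and the endothelial and stromal markers 3 higher and 1 lower of 9 (median 0.44), with peaks on Kdr, Vwf, Lamc1, Thbs1 and Fli1 in both cell types. The part of other cells in the differences was not tested.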

How the data were processed

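The deposited peak lists, 1 per cell type, give for each of 2 replicates the log2 enrichment that the authors computed with edgeR (IP over input, relative to the median window of the transcript). Reads had been aligned to mm10 (GRCm38) with TopHat2 2.0.14, and every listed value is at least 1. A pair therefore passed in all 4 replicates, and the lists hold 0 other value columns per sample. Depth is unknown.

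Pairs were formed in Python 3.11.15 (SciPy 1.17.1, NumPy 2.4.6, pandas 2.3.3) and plotted with matplotlib 3.10.9. They were compared with limma 3.58.1 (lmFit, eBayes with trend, no block) in R 4.3.3, DCreg minus maDC, with Benjamini-Hochberg adjustment, as were transcript means. The trend fit gave peaks of like mean enrichment one shared variance. It was run on simulated data drawn from that same variance model with equal spread in all columns, which cannot test the model itself. The replicate numbers were taken to mark nothing shared between the cell types, which the labels do not settle. The correlation of deviations between replicates of the same number was -0.0452, which cannot show that nothing was shared. Sequences and positions were used only for transcripts whose RefSeq sequence matched the listed GGACT positions (8187 of 9142), which covers 87.9% of pairs. Both strands count as one repeat unit.

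Named are up to 10 called pairs per direction (the others were added after their values were seen), the 10 smallest p where none was called, 10 transcripts with 3 or more pairs per direction, and per list the 4 strongest members and those separated by at least 1. Other members named were chosen after their values were seen. The pairs, lists and rules were chosen with earlier results of these data known. imDC peaks were used for levels only. Results for some genes are not reported here, though their pairs are in the counts.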

Additional observations from a re-analysis of the deposited data

How the results depend on the processing

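The 22 pairs that rose in DCreg stayed above 0 wherever they were tested. Each of them had both DCreg values above both maDC values, so most of these settings could not turn the sign. It is therefore no support for the calls. The total of pairs called, which can include others, was 4 with quantile normalization (Trim12c, E2f1, Suclg2 and Cd274), 8 with an overlap of at least 90%, 10 with at least 1.5 in all replicates (8 of them among the 22) and 0 without the variance trend. With the replicate number as a block it was 1 (Cd274). Leaving out a replicate gave 1 to 144. In 3 alternatives chosen after seeing the data it was 2 without repeat pairs (Zdhhc20 and Pabpc4), 2 without DCreg peaks 150 to 160 bases wide (Trim12c, among the 22, and Zeb2, not among them) and 0 with GGACT pairs only. Lower pairs numbered 0 in each, and 0 to 48 without a replicate. Transcripts that rose (2) numbered 0 with centred columns, quantile normalization, the 1.5 minimum, no trend and each of the 3 added subsets, 11 with the 90% overlap, 5 with an overlap of at least 50% of the longer peak, 5 with one-to-one pairs and 0 to 152 without a replicate. Transcripts that fell numbered 0 to 116 without a replicate.

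Pairs higher by at least 1 without overlap (685) numbered 409 with the 1.5 minimum, 372 without narrow DCreg peaks and 147 with GGACT only, 586 without repeat pairs, and 664 to 1187 without a replicate. Lower ones (405) numbered 176 with the 1.5 minimum, 156 with GGACT only, and 167 to 1602 without a replicate. Without a replicate the median difference ran from -0.163 to 0.201 over all pairs, -0.409 to 0.167 in the 5′ UTR, -0.036 to 0.321 in the CDS, -0.427 to 0.139 at stop codons, -0.237 to 0.065 at start codons and -0.203 to 0.208 in the 3′ UTR. Upf1 (-0.004) and Hnrnpll (-0.031) changed sign under quantile normalization. Leaving out a replicate leaves 1 library in a cell type, assumed to vary like the others. The smaller sets also hold fewer pairs, and other causes were not tested. Values at or near 1 lie at the authors' threshold, so falls below it cannot be seen.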
